A study of Homo sapiens with 6 samples.

Results

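The genes described here are 8 genes of myelin and of the Schwann cell lineage, MBP, PMP22, CNP, MAG, GFAP, PMP2, GAP43 and NES, in a melanoma cell line that tolerates a BRAF inhibitor. They were chosen by name at a time when earlier results of these data were known. Each gene was read from the probe set that carries its symbol alone. Of the 8 genes 7 were found in this way, among 18417 genes in all, and PMP22 was not analysed here. No member had a second probe set. RNA of WM164, a BRAF-mutant human line from a lymph node metastasis of melanoma, was hybridised to 6 whole-transcript expression arrays. The 3 IDTC arrays (induced drug tolerant cells) hold cells kept in 500 nM PLX4032 (vemurafenib, an inhibitor of the mutant BRAF kinase) for 16 days, and the 3 Parent arrays hold cells given DMSO, for a time that the labels do not state. All 6 samples share the one cell line, so they speak for WM164 alone, and nothing states that the cultures of a group came from separate experiments, so p-values measure only the spread between these samples. The values are log2 expression normalized by the authors, with no detection call, so it is unknown whether a gene at a low value lay above background.

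Myelin is the stack of glial membrane that insulates axons, made by Schwann cells in peripheral nerves and by oligodendrocytes in the brain. MBP lines and compacts its cytoplasmic faces, PMP2 is a fatty acid binding protein of peripheral myelin, CNP lies in the cytoplasm-filled channels of the sheath and MAG sits on its innermost membrane facing the axon. GFAP and NES encode intermediate filament proteins of glia and of neural progenitors, and GAP43 encodes a membrane-bound protein of growth cones that Schwann cells also make. Melanocytes and Schwann cells both descend from the neural crest, and part of the melanocytes arise from Schwann cell precursors along nerves. SOX10, a transcription factor of both lineages, is known to act on myelin genes in Schwann cells.

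Starts of transcription are shown for 2 of the members that rose, MBP and CNP, because their RNA differed between the groups. No sequence is given for PMP2, which also rose. The sequences are the 250 bases before each RefSeq start on GRCh38.p14, written 5′ to 3′ on the gene's own strand, and RefSeq lists 2 starts each for MBP and CNP. Those of MBP lie 115728 bases apart, the first opening the long transcripts known as Golli and the second the classic myelin transcripts. The single probe set of MBP is annotated to transcripts of the gene without regard to their start, so the array values below do not separate the starts. Capitals mark matches on either strand to ACAAAG or ACAATG, letters that SOX proteins can bind, to the E-box CACGTG, or to CACCC.
MBP first start, chr18:77132784-77133033, minus strand: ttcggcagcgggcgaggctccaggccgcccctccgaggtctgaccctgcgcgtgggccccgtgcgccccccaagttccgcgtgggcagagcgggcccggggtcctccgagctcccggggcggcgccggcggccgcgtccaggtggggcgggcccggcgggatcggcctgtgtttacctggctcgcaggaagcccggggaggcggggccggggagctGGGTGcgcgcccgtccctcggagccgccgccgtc
MBP second start, chr18:77017056-77017305, minus strand: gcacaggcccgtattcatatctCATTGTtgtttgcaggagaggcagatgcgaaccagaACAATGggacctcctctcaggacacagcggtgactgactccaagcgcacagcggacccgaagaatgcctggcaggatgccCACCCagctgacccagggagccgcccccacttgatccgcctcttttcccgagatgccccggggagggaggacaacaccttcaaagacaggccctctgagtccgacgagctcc
CNP first start, chr17:41966545-41966794, plus strand: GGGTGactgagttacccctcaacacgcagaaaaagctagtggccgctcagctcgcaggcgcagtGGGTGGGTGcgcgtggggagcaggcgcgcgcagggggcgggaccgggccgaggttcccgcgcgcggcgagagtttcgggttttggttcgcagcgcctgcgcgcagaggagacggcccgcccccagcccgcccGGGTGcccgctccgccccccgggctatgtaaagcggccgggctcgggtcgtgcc
CNP second start, chr17:41967547-41967796, plus strand: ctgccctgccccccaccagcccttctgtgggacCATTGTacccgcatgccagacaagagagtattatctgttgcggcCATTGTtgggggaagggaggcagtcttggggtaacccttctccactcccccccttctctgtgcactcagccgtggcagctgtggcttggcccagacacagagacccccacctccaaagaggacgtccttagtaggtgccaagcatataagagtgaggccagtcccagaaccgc

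The second start of MBP and the second start of CNP each held 2 matches to ACAATG, and the first start of either gene held none. In MBP these matches began 228 and 192 bases before the start, and in CNP 217 and 173 bases before it. Over 35116 RefSeq windows of the same length, 9.29% held ACAATG, 13.7% ACAAAG, 6.34% CACGTG and 54.7% CACCC. The first start of CNP held 4 matches to CACCC, of which a pair shared 1 base. Among the starts of the members that were not called, that of MAG held 1 match to ACAAAG and 2 to CACCC, that of NES 1 to CACCC and that of GAP43 no match to any of the letters searched. A match describes the letters only. PMP2 and GFAP are named without a sequence.

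The 3 members that rose in the drug-tolerant cells were MBP, PMP2 and CNP, all genes of the myelin sheath, and no member fell. MBP stood apart in size, with a 6.54-fold higher level in IDTC cells, while PMP2 was 1.34-fold and CNP 1.20-fold higher. GFAP, NES, GAP43 and MAG were not called, and MAG is also a gene of the sheath. A gene was called at a limma adjusted p under 0.05 over all 18417 genes. The share of members called, 42.9%, lay near the 46.6% of all genes called, so the number of called members says nothing particular about these genes. Among all genes 21.7% rose and 24.9% fell (3996 and 4592 genes), a balance that turned to 4846 higher and 4017 lower after re-centring of the arrays and to 4504 and 4403 after quantile normalization. The median log2 fold change was 0.04 over the 7 members, against -0.01 over all genes.

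**Figure D1:**
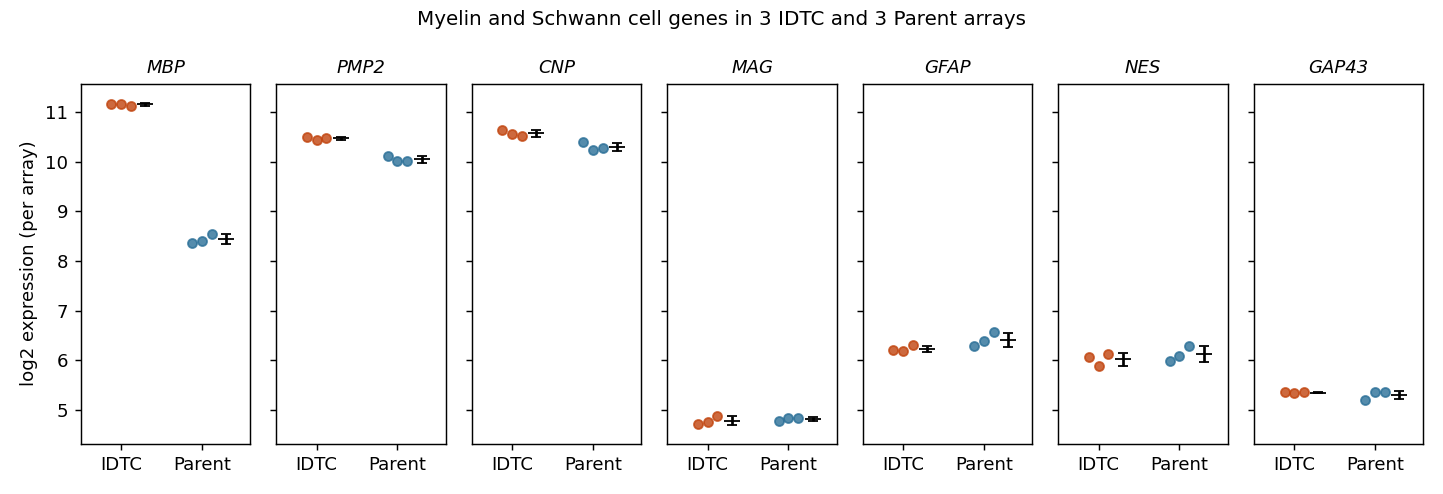
Log2 expression of the 7 genes on each array, with IDTC on the left and Parent on the right of each panel; points are arrays and bars are mean ± SD (n = 3 per group). Levels can be compared within a panel only, since each gene has its own probe set. The IDTC points lie above all Parent points for MBP, PMP2 and CNP and overlap them for MAG, GFAP, NES and GAP43.

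MBP had log2 expression of 11.15, 11.17 and 11.12 in the 3 IDTC arrays, against 8.37, 8.40 and 8.55 in the 3 Parent arrays. Every IDTC array lay more than 2 log2 units above every Parent array, and the IDTC arrays lay closer to each other (11.15 ± 0.02, SD, n = 3) than the Parent arrays did (8.44 ± 0.10, n = 3). The log2 fold change was 2.71 ± 0.06 (SE), with a 95% interval of 2.56 to 2.86 and a limma adjusted p of 2.77e-07. Ordered by log2 fold change, MBP was number 33 from the top of the 18417 genes, and it was the only member that changed by 2-fold or more, against 9.21% of all genes in either direction and 3.81% in the same direction.

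PMP2, the fatty acid binding protein of peripheral myelin, had log2 expression of 10.49, 10.44 and 10.47 in IDTC arrays, against 10.12, 10.003 and 10.002 in Parent arrays. The groups did not overlap, and the gap between the lowest IDTC and the highest Parent array was wider than the spread within either group. The log2 fold change was 0.42 ± 0.06 (95% interval 0.29 to 0.56, limma adjusted p = 5.71e-04). CNP, the phosphodiesterase of the uncompacted sheath, had 10.63, 10.56 and 10.50 in IDTC arrays, against 10.39, 10.23 and 10.27 in Parent arrays. Its groups did not overlap either, but the lowest IDTC and the highest Parent array lay close together, and the log2 fold change was 0.27 ± 0.07 (95% interval 0.11 to 0.42, limma adjusted p = 0.0114). The intervals of MBP and of these 2 genes do not meet, while those of PMP2 and CNP overlap. An exact permutation test over the 6 arrays gave a 2-sided p of 0.1 for MBP, PMP2 and CNP, the smallest that 3 against 3 arrays allow. Over all genes, the groups did not overlap in 54.1% of cases.

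MAG, the adhesion molecule between the sheath and the axon, had log2 expression of 4.72, 4.76 and 4.88 in IDTC arrays, against 4.78, 4.84 and 4.84 in Parent arrays. The groups overlapped, and the log2 fold change was -0.03 ± 0.06 (95% interval -0.17 to 0.11, limma adjusted p = 0.738). The interval spans 0 and allows a change in either direction, and the sign of the value turned after re-centring of the arrays (0.034).

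GFAP, the filament protein of astrocytes and of Schwann cells that do not form myelin, had 6.21, 6.18 and 6.30 in IDTC arrays, against 6.29, 6.38 and 6.57 in Parent arrays. The highest IDTC array lay just above the lowest Parent array, and the log2 fold change was -0.18 ± 0.08 (95% interval -0.38 to 0.01, limma adjusted p = 0.113). NES, the nestin gene of neural progenitors, had 6.06, 5.88 and 6.13 in IDTC arrays, against 5.98, 6.09 and 6.29 in Parent arrays. Its groups lay across each other, with a log2 fold change of -0.10 ± 0.10 (95% interval -0.33 to 0.14, limma adjusted p = 0.470).

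GAP43, the growth cone protein gene, had 5.36, 5.34 and 5.36 in IDTC arrays, against 5.21, 5.36 and 5.36 in Parent arrays. In 4 of the 6 arrays the deposited value was identical to its last digit, and IDTC 2 stood slightly and Parent 1 further below it. Of all genes, 1.31% had 4 arrays with the same value and 78.1% had none that shared one. The log2 fold change was 0.04 ± 0.06 (95% interval -0.10 to 0.18, limma adjusted p = 0.609), and it was -0.01 without Parent 1.

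**Figure D2:**
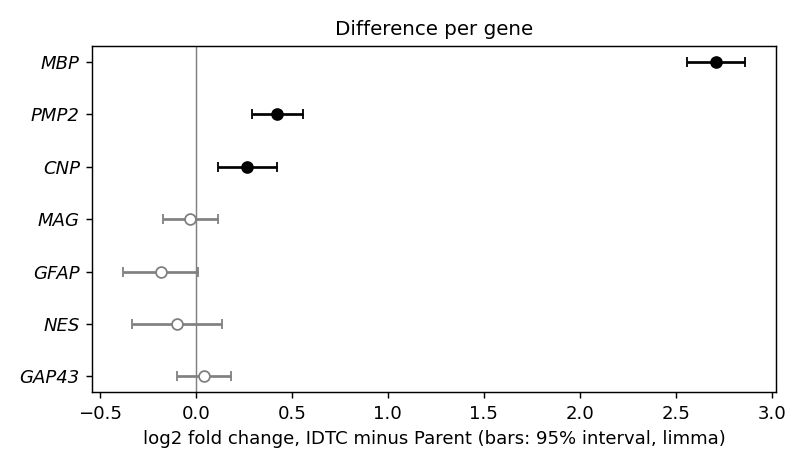
Log2 fold change, IDTC minus Parent, of the 7 genes, with the 95% interval from limma as a bar; filled points were called and open points were not. MBP lies at 2.71, PMP2 at 0.42 and CNP at 0.27, and the intervals of the other genes cross 0.

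By the distance between log2 profiles over the 6 arrays, each centred on its own mean, the 3 genes most like MBP were the sialyltransferase gene ST6GALNAC2 (distance 0.155), KLHL24 (0.160), which encodes a substrate adaptor of a ubiquitin ligase, and the link protein gene HAPLN3 (0.188). ST6GALNAC2 averaged 10.84 in IDTC and 8.17 in Parent arrays, KLHL24 9.48 and 6.66, and HAPLN3 10.02 and 7.23. With 2 groups, such likeness mostly says that the step between the groups is of the same size, here log2 fold changes of 2.67, 2.82 and 2.79.

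The related genes below come from lists of the pathway around the members, written by the known roles of the genes at a time when earlier results of these data were known. The share of all genes called, 46.6%, is the background for each count below. Over 16 other myelin protein genes the median log2 fold change was 0.11, with 3 called higher, 2 called lower and 11 uncalled. GJB1, the gap junction gene of Schwann cells that is mutated in X-linked Charcot-Marie-Tooth neuropathy, had 5.82, 5.87 and 5.91 in IDTC arrays, against 8.40, 8.26 and 8.40 in Parent arrays. It moved in the direction opposite to MBP, with a log2 fold change of -2.48 ± 0.06 (limma adjusted p = 3.36e-07). CMTM5, a membrane protein gene of the MARVEL family, rose by 1.35 ± 0.05 (adjusted p = 1.12e-06). The Schwann cell adhesion gene CADM4 rose by 0.81 ± 0.08 (adjusted p = 1.02e-04), and MAL, a lipid raft protein gene of myelin, rose by 0.72 ± 0.06 (adjusted p = 5.22e-05).

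Of 13 genes of myelin lipid synthesis and transport, 2 rose, 6 fell and 5 were not called (median -0.04). ASPA, which frees acetate from N-acetylaspartate for lipid synthesis in oligodendrocytes, averaged 4.99 in IDTC and 2.87 in Parent arrays (log2 fold change 2.12 ± 0.11, adjusted p = 3.88e-06). Both levels were low, at percentile 16.8 of all genes in IDTC and 0.35 in Parent arrays, so either may lie near background. CERS2, the synthase of very long chain ceramides, fell by 0.68 ± 0.05, the sterol pathway gene HMGCS1 by 0.48 ± 0.06 and the tetraspan gene PLLP by 0.47 ± 0.11.

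Regulators that promote myelination in Schwann cells went both ways, with 6 of 17 higher, 3 lower and 8 not called (median 0.02). SOX10 had 11.58, 11.58 and 11.56 in IDTC arrays, against 10.78, 10.67 and 10.73 in Parent arrays. It rose by 0.85 ± 0.05 (adjusted p = 1.23e-05), and its groups did not overlap. ZEB2, which restrains inhibitors of differentiation in Schwann cells, rose by 2.14 ± 0.05 and the cAMP-responsive factor gene CREB1 by 1.04 ± 0.07, whereas ADGRG6, the receptor that starts myelination through cAMP, fell by 1.10 ± 0.06. ERBB3, the receptor for axonal neuregulin, rose by 0.39 ± 0.05. EGR2, the factor that switches on the myelin programme, was not analysed here.

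All 13 measured genes of the list of myelination repressors and immature Schwann cell genes were called, 10 higher and 3 lower (median 0.61). JUN, which opposes EGR2 and maintains the immature state, had 9.66, 9.54 and 9.32 in IDTC arrays, against 6.86, 6.69 and 6.77 in Parent arrays (log2 fold change 2.73 ± 0.10, adjusted p = 1.00e-06). ID2, an inhibitor of basic helix-loop-helix factors, had 11.45, 11.24 and 11.26 in IDTC arrays, against 7.62, 7.32 and 7.36 in Parent arrays (log2 fold change 3.89 ± 0.10). PAX3 rose by 1.22 ± 0.07. EGR3, an immediate early factor, had 5.81, 6.03 and 5.72 in IDTC arrays, against 8.50, 8.59 and 8.66 in Parent arrays, and fell by 2.73 ± 0.09. JUN and MBP, which are opposed in Schwann cells, were thus both higher in IDTC cells.

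**Figure D3:**
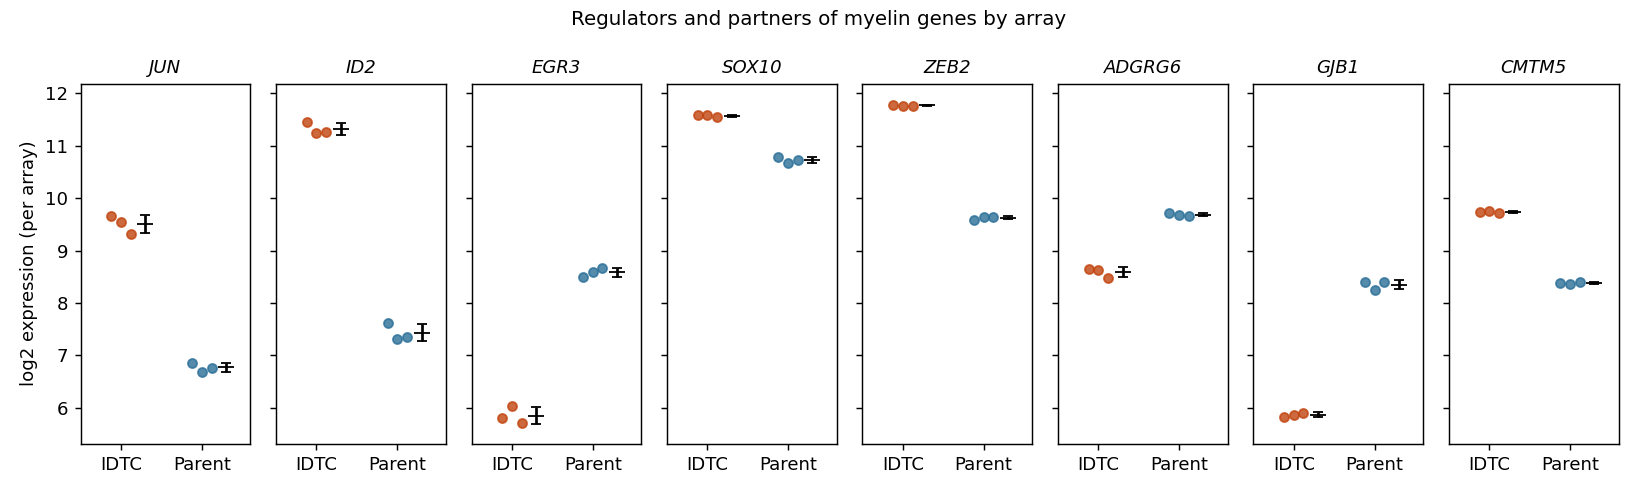
Log2 expression per array of 8 regulators and partners of myelin genes, with IDTC on the left and Parent on the right of each panel; points are arrays and bars are mean ± SD (n = 3 per group). JUN, ID2, SOX10, ZEB2 and CMTM5 lie higher in all IDTC arrays, and EGR3, ADGRG6 and GJB1 lie lower in all IDTC arrays; levels can be compared within a panel only.

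Genes of Schwann cell precursors rose in 4 of 10 cases and fell in 2 (median 0.21). The endothelin receptor gene EDNRB rose by 2.67 ± 0.07, the neural crest factor genes TFAP2A by 2.40 ± 0.05 and FOXD3 by 0.86 ± 0.08, while the integrin gene ITGA4 fell by 2.30 ± 0.07. Of 9 genes that repair Schwann cells switch on after nerve injury, 1 rose, 3 fell and 5 were not called (median -0.12). The cytokine gene LIF averaged 4.76 in IDTC and 9.88 in Parent arrays, UCN2 5.75 and 9.09 and the neurotrophin gene BDNF 4.80 and 6.84. In IDTC arrays LIF and BDNF lay at percentiles 13.5 and 14.0 of all genes, so these levels may lie near background. The rise of CCL2 (0.32 ± 0.11, adjusted p = 0.0443) was lost without any one array except Parent 2, with log2 fold changes of 0.21 without Parent 1 and 0.34 without Parent 3.

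None of the 8 intermediate filament genes of types III and IV besides GFAP and NES was called by limma, and none had an unadjusted p under 0.05. Their log2 fold changes ran from -0.06 to 0.15, with SYNM at 0.15 ± 0.12 and NEFM at 0.09 ± 0.10. With an intensity trend and a robust prior, 1 of the 8 passed, VIM at 0.07 (adjusted p = 0.0290), a gene named after its value was seen. Among 13 growth cone genes related to GAP43 by function, 4 rose, 2 fell and 7 were not called (median 0.06). DPYSL3 rose by 2.02 ± 0.10, MARCKS, a membrane-bound substrate of protein kinase C as GAP43 is, by 1.11 ± 0.06 and DPYSL2 by 0.72 ± 0.06, while NRGN fell by 0.54 ± 0.09.

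In the tetraspan family of PMP22, 2 of 6 genes rose, 3 fell and 1 was not called. EMP1 had 11.88, 11.90 and 11.75 in IDTC arrays, against 10.43, 10.39 and 10.39 in Parent arrays, and rose by 1.45 ± 0.06. EMP2 had 8.45, 8.59 and 8.49 in IDTC arrays, against 10.11, 10.11 and 10.01 in Parent arrays, and fell by 1.57 ± 0.06. TMEM47 rose by 0.89 ± 0.05 and PERP fell by 1.30 ± 0.06, so the relatives of PMP22 did not share a direction. In the fatty acid binding protein family of PMP2, 1 of 7 rose, 2 fell and 4 were not called. FABP7, the member of radial glia and Schwann cell precursors, had 7.63, 7.83 and 7.59 in IDTC arrays, against 9.15, 8.98 and 9.10 in Parent arrays, and fell by 1.40 ± 0.08, against the direction of PMP2. The calls of FABP4 (0.39 ± 0.12) and CRABP2 (-0.26 ± 0.08) were lost without any one Parent array, which left 1 called gene. FABP4 lay at percentile 2.63 of all genes in IDTC and 1.28 in Parent arrays, so both levels may lie near background. The call of CRABP2 held in only 4 of 11 alternatives and was also lost after re-centring (-0.20), with a trend and robust prior and without IDTC 1 or IDTC 2. In the siglec family of MAG, 1 of 10 was called, CD22 (-1.26 ± 0.06). Without IDTC 3 there were 3 such genes, with SIGLEC5 at -0.38 and SIGLEC15 at -0.23, which were named after their values were seen.

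**Figure D4:**
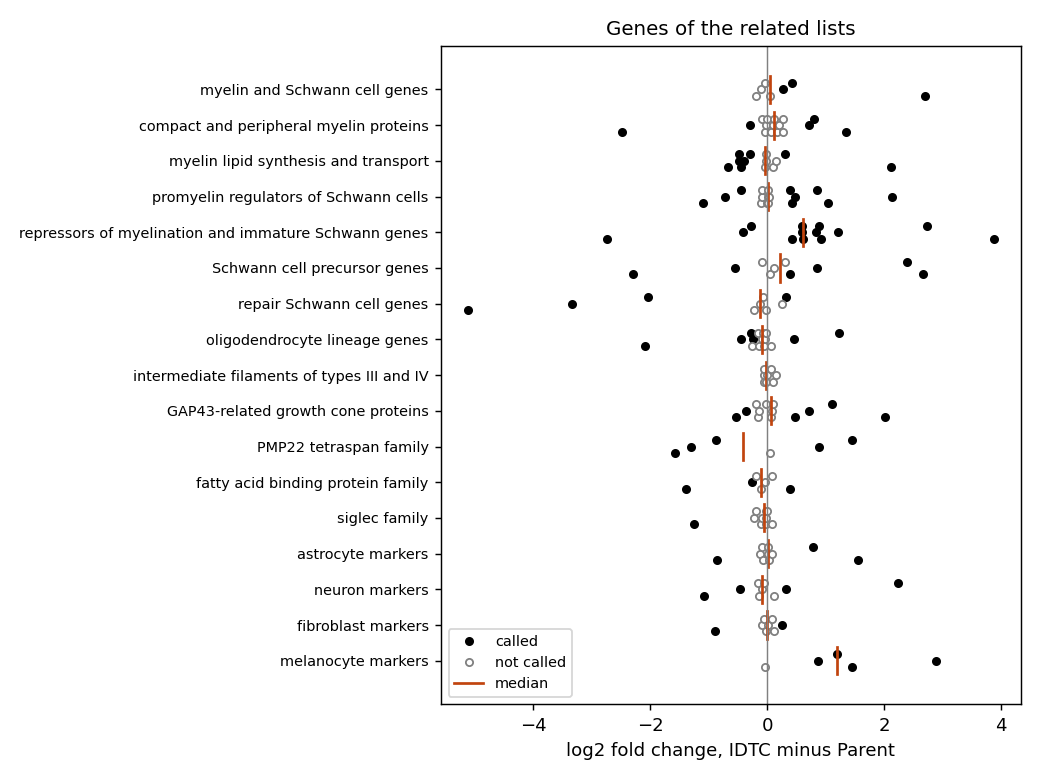
Log2 fold change, IDTC minus Parent, of each measured gene of the related lists, one list per row; filled points were called, open points were not, and the red bar is the list median. The list of myelination repressors and immature Schwann cell genes holds only called genes (10 higher and 3 lower), and that of intermediate filaments holds none. Of all genes 46.6% were called.

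The labelled cell type was checked by melanocyte markers, of which 4 of 5 measured rose. MITF was not called, with a mean of 11.10 in IDTC and 11.14 in Parent arrays (-0.04, limma adjusted p = 0.671). The check rests on the levels of PMEL, MLANA, TYR and MITF in both groups and not on a rise between them. In Parent arrays these lay at percentiles 99.6, 96.7, 92.9 and 97.5 of all genes. TYRP1 averaged 7.58 in IDTC and 4.69 in Parent arrays, the latter at percentile 13.4, so its Parent level may lie near background. The pigment genes PMEL (0.88 ± 0.05), MLANA (1.45 ± 0.05), TYR (1.20 ± 0.08) and TYRP1 (2.89 ± 0.12) were all higher in IDTC cells, and their list, MITF included, averaged 11.07 to 11.27 in IDTC and 9.88 to 9.92 in Parent arrays. Lists of other glia and cells moved less on average. Oligodendrocyte lineage genes averaged 6.43 to 6.58 in IDTC and 6.58 to 6.70 in Parent arrays (2 of 15 higher, 4 lower), with QKI, an RNA-binding protein gene, higher by 1.23 ± 0.07, MYRF by 0.46 ± 0.14, and CSPG4 and SOX8 lower by log2 fold changes of -2.09 ± 0.08 and -0.45 ± 0.06. The call of MYRF, the factor that drives myelin genes in oligodendrocytes, was lost in 4 of 6 fits that left out an array, with 0.35 without Parent 1. The defining oligodendrocyte genes OLIG2 (-0.04) and MOG (0.07) were not called.

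Astrocyte markers averaged 6.75 to 6.82 in IDTC and 6.59 to 6.70 in Parent arrays (2 of 10 higher, 1 lower). The glutamine synthetase gene GLUL rose by 1.56 ± 0.09, FGFR3 rose by 0.78 ± 0.13 and the calcium-binding protein gene S100B fell by 0.85 ± 0.07, while the astrocyte water channel gene AQP4 (-0.08) was not called. Neuron markers averaged 6.95 to 7.08 in IDTC and 6.90 to 6.98 in Parent arrays (2 of 9 higher, 2 lower), with MAP2 (2.24 ± 0.09) higher and ENO2 (-1.07 ± 0.05) and SNAP25 (-0.47 ± 0.07) lower; the rise of SLC17A7 (0.32 ± 0.10) was lost with the sample number as a replicate block (adjusted p = 0.0574) and in 4 of 6 fits that left out an array. Fibroblast markers averaged 5.74 to 5.84 in IDTC and 5.80 to 5.91 in Parent arrays (1 of 8 higher, 1 lower), with LUM at -0.89 ± 0.14 and FAP at 0.26 ± 0.08, a call lost after quantile normalization (0.17) and without Parent 1 (0.20), Parent 2, IDTC 1 or IDTC 2. FAP lay low, at percentile 8.12 of all genes in IDTC and 6.59 in Parent arrays. The fibroblast matrix genes COL1A1 (-0.03), COL3A1 (0.01) and DCN (0.08) were not called. The part of other cells in the values of MBP, PMP2 and CNP was not tested, and in RNA of whole cultures more expressing cells and more RNA per cell cannot be told apart.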

How the data were processed

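The deposited table holds log2 expression of 33297 probe sets on 6 arrays, normalized by the authors. Per the submitters' processing notes, RMA, Affymetrix Expression Console and Partek 6.6 were used, in an unstated order. The array annotation gave a single symbol for 19460 probe sets and several for 1754. For genes with more than 1 probe set, the brightest on average was kept, giving 18417 genes. Genome build and annotation version are not given in the sources used here. IDTC was compared with Parent per gene with limma 3.58.1 (R 4.3.3, a 2-sided moderated test without covariates or a filter), adjusted after Benjamini-Hochberg over all genes; unless named otherwise, adjusted p-values are from limma. Arrays correlated at 0.995 to 0.998 within groups and at 0.953 to 0.957 between them, and array medians ran from 6.25 to 6.36. The number of arrays limits the precision. In data simulated for this comparison with 18417 genes, 52% of 50 genes changed by 0.5 log2 and 94% of 50 changed by 1 were recovered. The simulation changed 50 genes each by 0.5, 1, 2 and 3 log2. That is a far smaller share than the 46.6% of genes called in the data, so it does not give the recovery in the data.

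The members and the gene lists were chosen with earlier results of these data known. Named were the members, up to 4 called genes of largest change per list (up to 2 genes where none was called), SOX10, EGR2 and ERBB3, and the 3 profiles nearest to a member called at 2-fold or more. Alternatives were re-centring, quantile normalization, leaving out the dimmest 40% of genes, a trend with a robust prior, the mean of all probe sets, the replicate block and leaving out each array. Same-numbered arrays deviated from their group means with correlations of 0.31, -0.19 and 0.26, so the numbers were not taken to pair the samples.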

Additional observations from a re-analysis of the deposited data

How the results depend on the processing

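MBP, PMP2 and CNP rose under all 12 alternatives, and MAG, GFAP, NES and GAP43 were called under none of the 11 that kept them; the filter on dim genes removed those 4. The log2 fold change of MBP ran from 2.67 to 2.80, that of PMP2 from 0.40 to 0.56 and that of CNP from 0.24 to 0.39, the highest of each after quantile normalization. The adjusted p of CNP was highest without Parent 2 (0.0484). With the replicate block, the log2 fold change of MBP was 2.71 (adjusted p = 2.81e-06), and no call of a member changed. MAG was at 0.034 after re-centring and at -0.0741 to 0.00388 when arrays were left out in turn, GAP43 at -0.00634 to 0.0672 and NEFM at -0.0153 to 0.171 when arrays were left out, so the sign of these uncalled differences is not settled. The median of the members was 0.42 without the dimmest 40% of genes, where 3 members remained. Genes called in all numbered 7375 to 8907 over the alternatives, against 8588. Called members of the related lists differed by more than 1.5 times for fatty acid binding proteins (1 without the dimmest genes), oligodendrocyte genes (3) and repair Schwann cell genes (2) under that filter, for fibroblast markers (1 under that filter, after quantile normalization and without Parent 1, Parent 2, IDTC 1 or IDTC 2), for fatty acid binding proteins also without any one Parent array (1), for siglecs without IDTC 3 (3, against 1) and for intermediate filaments with a trend and robust prior (1, against 0). The cause was not tested, apart from the fewer genes the filter leaves. Without a detection call, changes of dim genes such as MAG and GAP43 may be understated.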
